A study of Mus musculus with 6 samples.

Results

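The nuclear genes that set how mitochondria fuse, divide and are removed were followed in single-cell RNA-seq of mouse islets. The 9 genes, chosen by exact gene symbol out of 32285 genes in the files, were Mfn1, Mfn2, Opa1, Oma1, Dnm1l, Fis1, Mff, Pink1 and Bnip3, and each was found once. Islets came from β14-3-3ζ-KO mice and WT mice, both C57/BL6 and 12 to 14 weeks old. In the KO mice Ins1-CreThor, a Cre knocked into the insulin 1 locus and active in β cells, removed an exon of Ywhaz, the gene for 14-3-3ζ, between loxP sites. By the study's breeding scheme the WT littermates also carried the Cre, so the groups shared it. The comparison asked whether losing 14-3-3ζ, a scaffold that binds phosphorylated proteins, goes with other levels of these genes. Each group had 3 libraries from 3 mice, numbered 1 to 3, of islets that rested overnight and were then dispersed and depleted of dead cells. Cells of a library were summed, so p-values between genotypes measure the spread between libraries. In comparisons of cell types or of split cells within libraries, they measure how far the difference varies from library to library.

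Mitochondria in β cells form a network that is joined and cut all the time. Mitofusins, the products of Mfn1 and Mfn2, join outer membranes, and OPA1 joins inner membranes and shapes the cristae. The protease OMA1 cuts OPA1 when the membrane potential is lost, which stops inner membrane fusion. Fission is carried out by the dynamin DRP1, the product of Dnm1l, which is recruited to the outer membrane by adaptors such as MFF, and FIS1 sits on the same membrane. Damaged pieces are removed by mitophagy, either through PINK1, a kinase that builds up on depolarised mitochondria, or through receptors such as BNIP3, whose gene is a known target of hypoxia signalling. β cells release insulin in answer to ATP from their mitochondria, and these processes are known to bear on that coupling.

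Between 4400 and 10722 barcodes were deposited per library, with 74083947 to 98294915 unique molecular identifiers (UMIs, each counting 1 captured transcript) in all. Barcodes with at least 500 genes and at most 10% mitochondrially encoded UMIs were kept, and cells were classed by their dominant hormone or, for other types, by marker genes. This gave 6028 β cells (778 to 1203 per library), 674 α, 562 δ and 1160 endothelial cells and 465 macrophages. The shares of kept barcodes that received a class ran from 32.2% to 83.0%, and any 2 libraries shared 7 to 27 barcodes, at most 0.437% of the smaller one. Insulin made up 41.1% to 49.6% of the UMIs of β cells, and all 9 β cell markers, 7 of them not used to class the cells, had UMIs in every library. Acinar markers, a sign of exocrine tissue, summed to 345 CPM (UMIs scaled to a common total per library and type) in WT 1 β cells and to between 2.80 and 59.2 CPM in the β cells of the other libraries, with UMIs for 5 of 5 markers in each. The 6 δ cell markers summed to 174, 220 and 281 CPM in WT and 362, 410 and 322 CPM in KO β cells, with no overlap between the groups, and the part of δ cell RNA in the comparisons below was not tested. Ywhaz over all β cells was 142, 160 and 150 CPM in WT and 18.7, 20.2 and 18.3 CPM in KO, a log2 fold change of −2.99 ± 0.08 (SE, FDR = 1.19e-06, edgeR's quasi-likelihood test). As in the study, KO β cells with a Ywhaz UMI were then left out. This left 2549 WT and 2107 KO β cells.

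None of the 9 genes differed between WT and KO β cells by the test across all 9399 genes (FDR under 0.05 and a log2 change over 0.1). At those limits 0.0106% of all genes were called, which is Ywhaz itself, whose absence the selection of cells fixed. With the replicate number as a block, 9 genes were called, and still 0 of the 9. Without the block no member had an unadjusted p under 0.05, against 4.81% of all genes. With it Bnip3 and Oma1 did (0.00539 and 0.0469 by edgeR), as did 11.9% of all genes. DESeq2 called 0 of the 9 too. The median log2 fold change of the 9 was 0.01 beside 0.00 over all genes. UMI counts per β cell were low, from 0.300 for Oma1 to 2.77 for Fis1, so that each comparison rests on sums over all cells of a library.

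**Figure D1:**
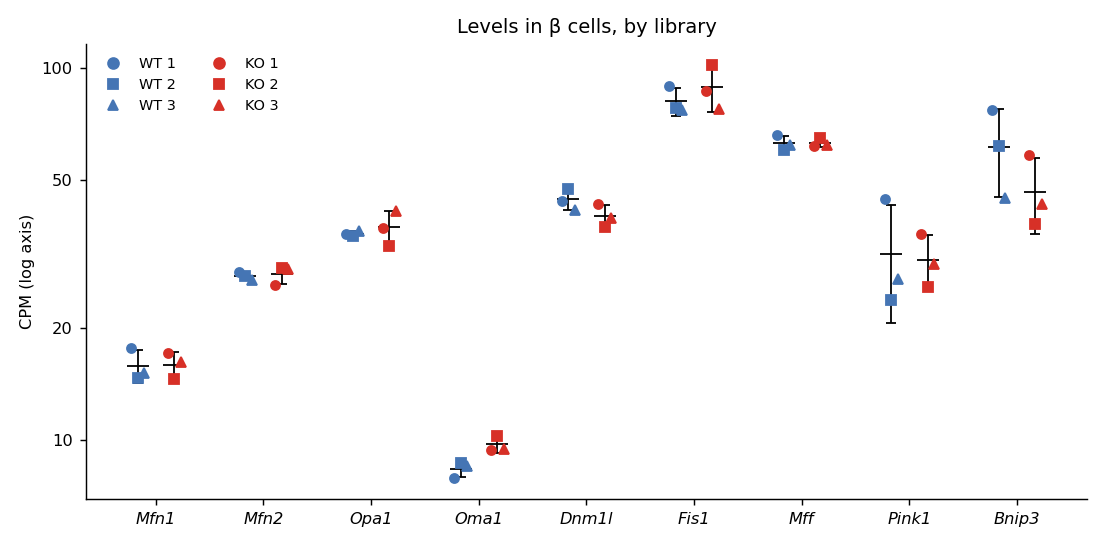
Levels of the 9 genes in β cells (CPM, log axis) in 3 WT libraries (blue) and 3 KO libraries (red), with the mean and SD in black and the symbol giving the library number. WT and KO points overlap for every gene but Oma1, whose 3 KO libraries lie above the WT libraries, and Bnip3 and Pink1 spread the most within a group.

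The mitofusins differed little. Mfn1 (chr3:32529465-32579239, plus strand, in mm10 like all positions here) was at 17.6, 14.7 and 15.2 CPM in WT 1 to 3 and at 17.1, 14.6 and 16.2 CPM in KO 1 to 3. Its log2 fold change was 0.01 ± 0.10 (SE, 95% interval −0.21 to 0.24). Mfn2 (chr4:147873599-147904704, minus strand) was at 28.3, 27.6 and 26.9 CPM in WT and 26.0, 28.9 and 28.8 CPM in KO, with a log2 fold change of 0.02 ± 0.08 (interval −0.16 to 0.19). For both mitofusins the groups overlapped.

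Opa1 (chr16:29579334-29654884, plus strand) was at 35.8, 35.3 and 36.4 CPM in WT and at 37.1, 33.2 and 41.3 CPM in KO. The WT libraries sat close together, with an SD of 0.557 CPM, and the KO libraries lay on both sides of them with an SD of 4.04 CPM. The log2 fold change was 0.06 ± 0.09 (interval −0.14 to 0.26). By quantitative PCR of whole islets, not of β cells alone, the study reports Opa1 as significantly increased in KO mice.

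Oma1 (chr4:103313812-103371868, plus strand) was the one member whose groups did not overlap in β cells. It was at 7.90, 8.65 and 8.54 CPM in WT and 9.43, 10.3 and 9.49 CPM in KO, so that the lowest KO library was above the highest WT library. The KO libraries of 5.76% of all genes lay above every WT library and those of 5.62% below, so 1 such gene among 9 is near the background of 11.4%. The log2 fold change was 0.22 ± 0.10 (unadjusted p = 0.0506, FDR = 0.872 by edgeR), 0.21 with all KO β cells kept (unadjusted p = 0.0423, FDR = 0.867) and 0.22 with the block (unadjusted p = 0.0469, FDR = 0.410). Oma1 is also the least covered of the 9.

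Among the fission genes Dnm1l (chr16:16312230-16358959, minus strand) was at 43.9, 47.3 and 41.5 CPM in WT and 43.0, 37.4 and 39.4 CPM in KO. The KO library was below the WT library of the same number in 3 of 3 pairs, though KO 1 lay above WT 3. The log2 fold change was −0.15 ± 0.08 (interval −0.34 to 0.04, FDR = 0.872 by edgeR). Mff (chr1:82724890-82752394, plus strand), the adaptor, was at 65.9, 60.0 and 62.1 CPM in WT and 61.8, 64.6 and 61.9 CPM in KO, a log2 fold change of 0.00 ± 0.07 (interval −0.16 to 0.16). Its highest level was 1.10 times its lowest over the 6 libraries, where the median gene had 1.26.

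Fis1 (chr5:136953275-136966234, plus strand) was at 89.3, 77.8 and 76.8 CPM in WT and 86.6, 102 and 77.2 CPM in KO. KO 2 stood highest and the other KO libraries lay within the WT range, and the log2 fold change was 0.12 ± 0.11 (interval −0.13 to 0.37).

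Of the mitophagy genes Pink1 (chr4:138313409-138326307, minus strand) was at 44.3, 23.7 and 27.1 CPM in WT and 35.9, 25.7 and 29.7 CPM in KO. Library 1 was the highest of its group in both genotypes. The log2 fold change was −0.06 ± 0.22 (interval −0.56 to 0.44), and it turned to 0.26 without WT 1 and to 0.05 without KO 2.

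Bnip3 (chr7:138890836-138909519, minus strand) had the largest difference of the 9 in β cells. It was at 77.2, 61.7 and 44.6 CPM in WT and at 58.4, 38.0 and 43.0 CPM in KO. The KO library was lower than the WT library of the same number in 3 of 3 pairs, but the groups overlapped, because KO 1 lay above WT 3. The log2 fold change was −0.39 ± 0.21 (interval −0.86 to 0.08, unadjusted p = 0.0919, FDR = 0.872 by edgeR). With the replicate number as a block it was −0.38 (unadjusted p = 0.00539, FDR = 0.271), still outside the limit. The last exon of Bnip3 overlaps an antisense gene, Gm45507, which had 16 UMIs in all β cells against 10776 for Bnip3.

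The same comparison in the other cell types of the same islets, which do not normally use the insulin 1 gene, gives the background. Of 10102 genes in α cells, 10078 in δ cells and 10392 in endothelial cells 0% were called, and 0.026% of 7706 genes in macrophages. The 9 members gave 0 calls in each of these types, and 1 of 36 tests had an unadjusted p under 0.05 without the block. That share was 3.49%, 2.93%, 3.8% and 5.54% of all genes in α, δ, endothelial cells and macrophages. DESeq2 called 0 members in each type as well. With the replicate number as a block, 11, 6, 1 and 42 genes were called in these types in the same order, and 0 members. Bnip3 then had an unadjusted p under 0.05 in endothelial cells and macrophages, beside 8.41% and 7.75% of all genes by edgeR.

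**Figure D2:**
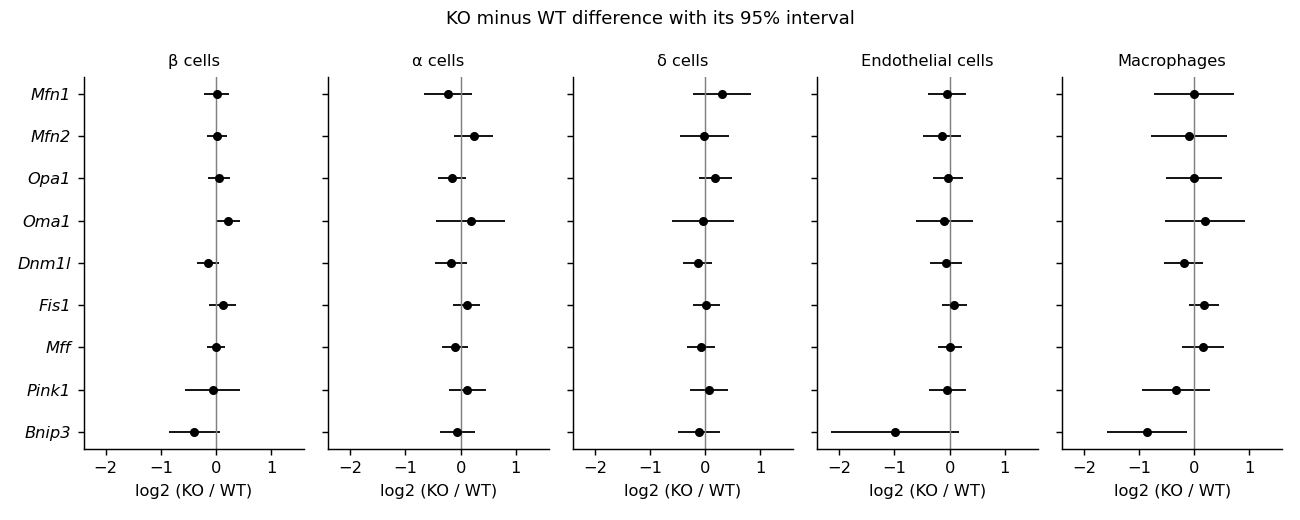
KO minus WT difference (log2) of the 9 genes in each of 5 cell types, with 95% intervals from edgeR. All intervals include 0 except that of Bnip3 in macrophages, and none of the differences was called.

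Some members kept 1 direction over the types without being called in any. Bnip3 and Dnm1l had a lower mean in KO than in WT in 5 of 5 types, which was so for 6.28% of the 6604 genes tested in all types. Fis1 had a higher mean in KO in 5 of 5 types, as did 8.33% of those genes. β cells are 1 of the 5, and all types came from the same 6 libraries, so these are not separate tests. In α cells the KO libraries lay below all WT libraries for Mfn1 (−0.23 ± 0.20), Opa1 (−0.16 ± 0.12) and Mff (−0.10 ± 0.11) and above them for Mfn2 (0.24 ± 0.17), 4 of 9 where 9.48% of all genes did not overlap. The 7 macrophage markers in α cells summed to between 28.9 and 48.3 CPM in WT and between 22.2 and 25.5 CPM in KO, also without overlap, and their part was not tested. In macrophages Dnm1l lay below (−0.19 ± 0.17) and Fis1 above (0.18 ± 0.13), with 11.1% of all genes not overlapping. In δ and endothelial cells no member was free of overlap, where 7.93% and 9.49% of all genes were. The lowest unadjusted p among these 6 was 0.182.

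Bnip3 also had the largest fold difference of the 9 in macrophages and in endothelial cells. In macrophages it was at 63.1, 46.8 and 28.5 CPM in WT and 40.1, 23.1 and 14.3 CPM in KO. Again 3 of 3 KO libraries were below the WT library of the same number and KO 1 was above WT 3. The log2 fold change was −0.86 ± 0.34 (interval −1.58 to −0.14, unadjusted p = 0.0232, FDR = 0.878 by edgeR), or −0.84 with the block (unadjusted p = 0.000759, FDR = 0.103).

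In endothelial cells Bnip3 was at 30.2, 57.3 and 16.0 CPM in WT and 33.4, 7.57 and 10.8 CPM in KO. The highest library held 7.56 times the level of the lowest, and the log2 fold change was −0.998 ± 0.52 (interval −2.16 to 0.16, FDR = 0.974 by edgeR), or −1.04 with the block (unadjusted p = 0.0369, FDR = 0.559). In α cells (−0.06 ± 0.15) and δ cells (−0.11 ± 0.18) the difference was small beside its error, and it changed sign without KO 2 (0.08) in α cells and without WT 2 (0.14) in δ cells.

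The same 3 libraries, WT 1, WT 2 and KO 1, held the highest Bnip3 values in β, α, δ and endothelial cells and in macrophages, though not in 1 order. No other member had the same 3 libraries on top in all 5 types, and of the 6604 genes tested in all types 6 did (0.0909%), 3 of them with this trio (0.0454%), namely Bnip3, Rab21 and Hnrnpa0. This pattern was picked after the values were seen, and these genes were named for it. Insulin UMIs in endothelial cells, a measure of free RNA, made up 0.662%, 3.20% and 1.69% in WT 1 to 3 and 1.65%, 4.41% and 2.57% in KO 1 to 3. In macrophages they made up 0.837%, 3.39% and 1.91% in WT and 1.997%, 4.54% and 2.96% in KO. Ighm, an immunoglobulin gene that marks B cells, was at 1028 CPM in the endothelial cells of KO 2 and at most 46.2 CPM in those of the other libraries. In macrophages it was at 1643 CPM in KO 2 and at most 61.5 CPM elsewhere. Acinar markers in macrophages summed to 32.3, 16.8 and 34.6 CPM in WT and 65.5, 92.4 and 522 CPM in KO, with no overlap. The part of free RNA and of B cell and acinar transcripts in the Bnip3 values was not tested.

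**Figure D3:**
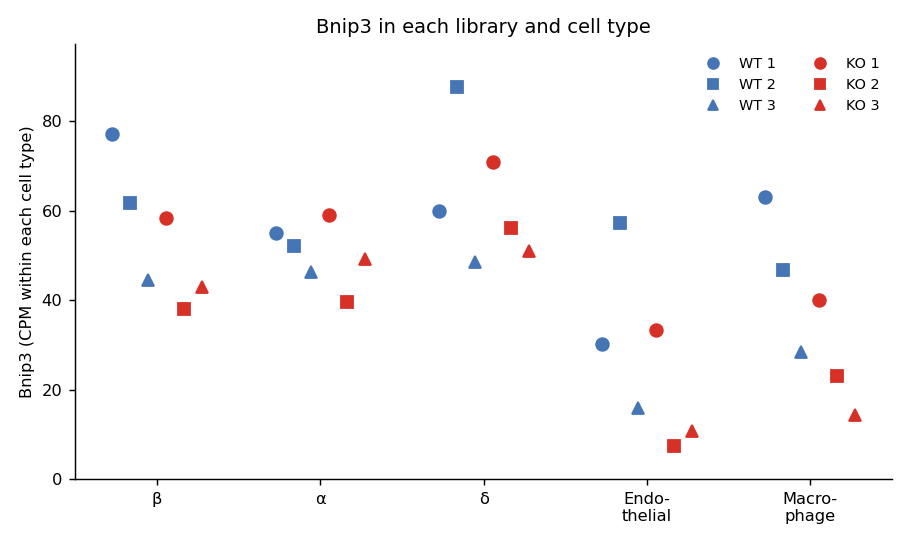
Bnip3 level (CPM, scaled within each cell type) in every library and cell type, WT in blue and KO in red, with the symbol giving the library number. WT 1, WT 2 and KO 1 are the 3 highest points in each of the 5 types, while the KO mean is called lower than the WT mean in none.

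The sequence upstream of Bnip3 is shown because the gene is a textbook hypoxia target. The 250 bases before its RefSeq start site (GRCm38.p6, chr7:138909507-138909756, minus strand) are written 5′ to 3′ with matches to ACGTG, the core of the hypoxia response element, in capitals.
Bnip3 upstream: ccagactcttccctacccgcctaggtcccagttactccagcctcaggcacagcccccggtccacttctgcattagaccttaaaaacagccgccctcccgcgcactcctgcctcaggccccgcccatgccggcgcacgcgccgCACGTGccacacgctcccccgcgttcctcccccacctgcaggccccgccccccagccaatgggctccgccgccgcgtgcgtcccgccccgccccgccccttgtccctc
The motif was searched on both strands, and the 2 matches overlap because CACGTG reads the same on both. The same search over 300-base windows around the start sites of all genes found ACGTG in 6447 of 32851 promoters, or 19.6%, so a match alone marks no small class of genes, and among the other members Mfn2 held it in 2 of its 3 windows. A match is a description of letters, and it says nothing about binding in these islets.

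Whether a genotype difference in another type departed from that in β cells was tested directly in 1 fit over all types. Of 36 such tests of the members 0 were called, where 0.0152% of 13187 genes were called for α cells, 0.00758% for δ cells, 0.0455% for endothelial cells and 0.0152% for macrophages, and 0 of the 36 had an unadjusted p under 0.05. Ywhaz is among the genes called for each type, which the selection of KO β cells fixed, and for δ cells it was the only one. The nearest was Bnip3 in endothelial cells, which differed from β cells by −0.62 ± 0.33 on the log2 scale (interval −1.30 to 0.06, unadjusted p = 0.0727, FDR = 1 by edgeR).

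More of the 9 genes were called between cell types than between genotypes, and so were more of all genes. Levels in this comparison are CPM scaled by TMM over the sums of all libraries and types, so they are not those of the β cell fit above. Against β cells, 5 members were called in α cells, 1 higher and 4 lower, where 53.3% of 12460 genes were called, 23.3% higher and 30% lower. In δ cells 3 were higher and 2 lower, beside 53.1% of all genes, 23.6% higher and 29.4% lower. In endothelial cells 3 were higher and 6 lower, beside 83.4%, with 38.8% higher and 44.6% lower. In macrophages 2 were higher and 5 lower, beside 77.2%, with 34% higher and 43.2% lower. Between α and δ cells 1 was called, lower in α cells, beside 37.2%, with 17.3% higher and 19.9% lower. The median log2 difference of the 9 from β cells was −0.23 in α cells (−0.04 over all genes), −0.07 in δ cells (−0.05), −0.29 in endothelial cells (−0.09) and −0.27 in macrophages (−0.21). Scaling bears on the signs. Without TMM the median gene moved up by 0.47 in α, 0.65 in δ and 0.71 in endothelial cells and by 0.32 in macrophages relative to β cells, and the share of calls that were higher went from 43.7% to 83.7% in α cells, 44.5% to 92.1% in δ cells, 46.6% to 69.3% in endothelial cells and 44.1% to 55.6% in macrophages. Called differences of the members that lost their sign or call without TMM are given below with that value.

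**Figure D4:**
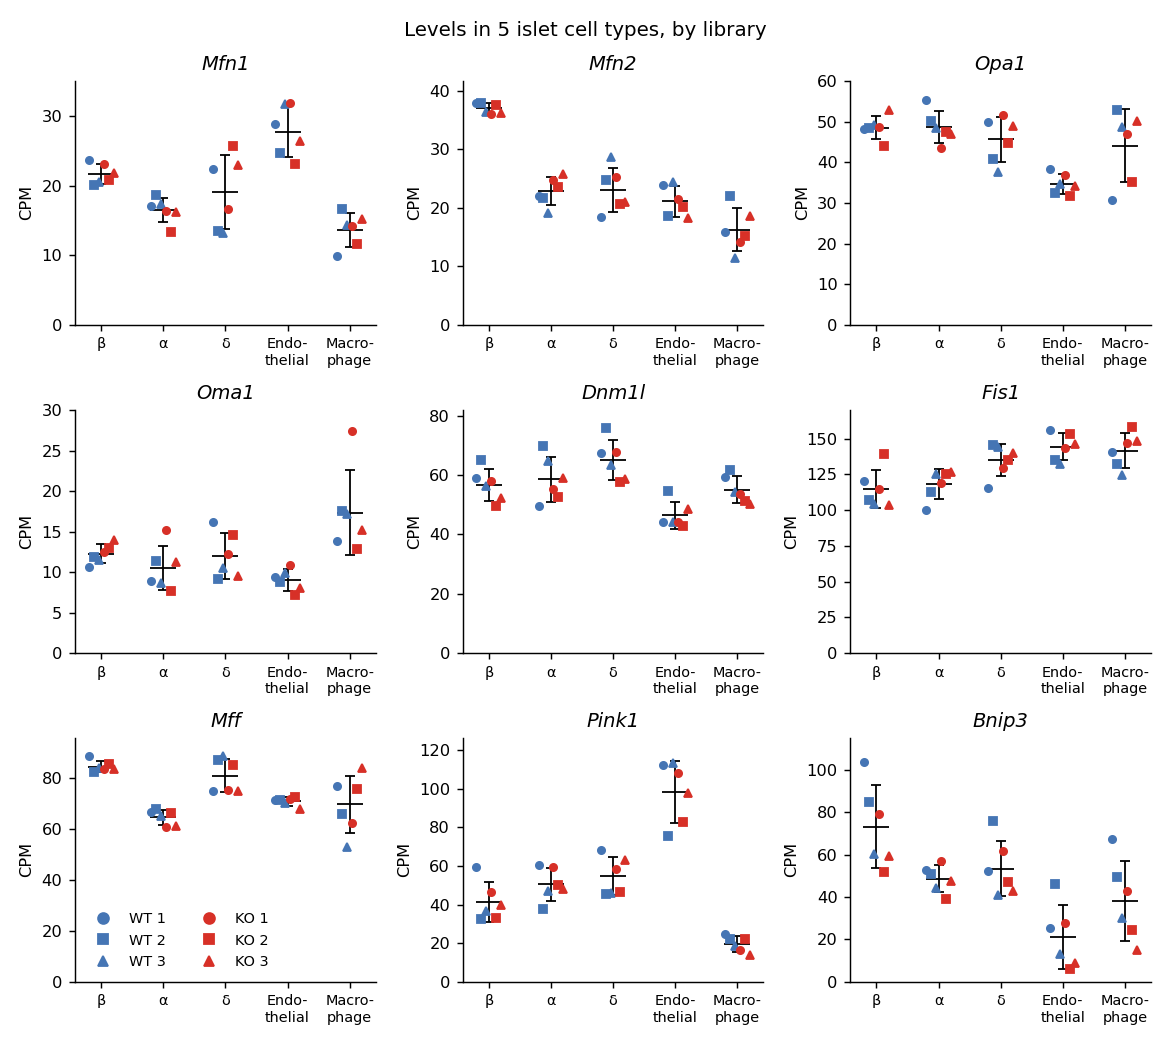
Level of each gene (CPM, TMM scaled over all types) in 5 islet cell types, 1 point per library (WT blue, KO red) with the mean and SD over 6 libraries. Mfn2 and Bnip3 are highest in β cells and Pink1 in endothelial cells in 6 of 6 libraries. The order of levels that differ little depends on the scaling.

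Mfn2 was highest in β cells. Its level was 37.0 ± 0.908 CPM (SD, n = 6) in β cells, 23.1 ± 3.74 in δ, 22.8 ± 2.38 in α and 21.1 ± 2.63 CPM in endothelial cells, and 16.2 ± 3.66 CPM in macrophages. The β value was the highest of the 5 types in 6 of 6 libraries. Mfn2 was lower than in β cells by −0.69 ± 0.10 in α cells (FDR = 4.16e-07), −0.69 ± 0.10 in δ cells (FDR = 5.95e-07), −0.81 ± 0.09 in endothelial cells (FDR = 7.73e-10) and −1.16 ± 0.13 in macrophages (FDR = 3.11e-09, all edgeR). Its α and δ levels did not differ beyond their spread (0.00 ± 0.12). Without TMM the Mfn2 difference shrank to −0.22 in α cells, −0.04 in δ cells and −0.10 in endothelial cells, below the limit of a call, while it stayed below 0.

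Mfn1 did not follow its paralog. It was highest in endothelial cells at 27.8 ± 3.71 CPM, above β cells in 6 of 6 libraries (0.36 ± 0.10, FDR = 0.00127, but 0.18 and FDR = 0.0827 with totals without hormone genes), then 21.7 ± 1.44 CPM in β, 19.1 ± 5.34 in δ, 16.5 ± 1.75 in α cells and 13.7 ± 2.47 CPM in macrophages. It was lower than in β cells by −0.40 ± 0.12 in α cells (FDR = 0.0056), where it turned to 0.07 without TMM and was not called at a mitochondrial limit of 20% (−0.16, FDR = 0.214) or in WT libraries alone (−0.26, FDR = 0.279), and by −0.66 ± 0.16 in macrophages (FDR = 0.000517, all edgeR), not called without TMM (−0.34, FDR = 0.0762), while δ and β cells did not differ beyond their spread. The UMIs of Mfn2 per UMI of Mfn1, a ratio that needs no scaling, were 1.71 ± 0.125 in β cells (1.56 to 1.88 over 6 libraries) and 0.764 ± 0.0759 in endothelial cells (0.670 to 0.869).

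The study also measured several of these genes by quantitative PCR, and it reports Opa1 as significantly increased in KO islets. Those values are of whole islets, while the genotype values above are of single cell types. The part of that difference in material was not tested. The study's primers for Mfn2 are printed with those for Fis1 because their distances from the 3′ end, where the libraries here were read, lie far apart. They are given 5′ to 3′ and in lower case throughout.
Mfn2 forward: ctcaggagcagcgggtttat
Mfn2 reverse: gagaggcgcctgatctcttc
Fis1 forward: ccggctcaaggaatatgaaa
Fis1 reverse: acagccagtccaatgagtcc
The Mfn2 pair spans 178 bases of a 4341-base transcript and ends 2739 bases before its 3′ end, and the Fis1 pair spans 195 bases of a 786-base transcript and ends 239 bases before it (GENCODE models in mm10). UMIs from 3′ libraries stand mostly for sequence near that end, which holds the Fis1 product and lies far from the Mfn2 product. The Opa1 product of the study lies further still, ending 4885 bases before the 3′ end of a 6230-base transcript.

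Opa1 and the gene of its protease, Oma1, were both called lower in endothelial than in β cells, and in macrophages only Oma1 was called. Opa1 was at 48.7 ± 3.98 CPM in α, 48.5 ± 2.82 in β and 45.7 ± 5.57 CPM in δ cells and 44.1 ± 9.0 CPM in macrophages, which did not differ from β cells by the test, and at 34.7 ± 2.55 CPM in endothelial cells. The endothelial difference was −0.48 ± 0.08 (FDR = 9.25e-07 by edgeR), lower in 6 of 6 libraries, and it turned to 0.23 without TMM. Oma1 was highest in macrophages at 17.3 ± 5.24 CPM, against 12.3 ± 1.17 in β, 12.0 ± 2.86 in δ, 10.5 ± 2.73 in α and 9.04 ± 1.33 CPM in endothelial cells. The macrophage difference of 0.49 ± 0.17 (FDR = 0.00981 by edgeR) was lost without KO 1 (0.33, FDR = 0.114) and turned to −0.06 when totals without hormone genes replaced TMM, and it was called neither in WT (0.50, FDR = 0.0787) nor in KO libraries alone (0.57, FDR = 0.0587). The endothelial difference of −0.44 ± 0.14 (FDR = 0.00433 by edgeR) turned to 0.26 without TMM and was not called in WT libraries alone (−0.29, FDR = 0.197) or at a mitochondrial limit of 5% (−0.29, FDR = 0.0565).

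Of the fission genes, Dnm1l was at 65.1 ± 6.73 CPM in δ, 58.6 ± 7.63 in α and 56.7 ± 5.36 CPM in β cells, 55.1 ± 4.48 CPM in macrophages and 46.5 ± 4.52 CPM in endothelial cells. It was above β cells in δ cells (0.21 ± 0.06, FDR = 0.0033) and below them in endothelial cells (−0.29 ± 0.06, FDR = 2.22e-05, both edgeR), the latter turning to 0.43 without TMM and not called in KO libraries alone (−0.12, FDR = 0.187). The δ difference of Dnm1l was not called in WT libraries alone (0.19, FDR = 0.140), at a mitochondrial limit of 5% (0.15, FDR = 0.112) or without a filter on low counts (0.15, FDR = 0.139). Over these 5 types and with this scaling the highest mean of Fis1 was 1.26 times the lowest. Its level was 144 ± 9.44 CPM in endothelial cells, 142 ± 11.9 CPM in macrophages, 135 ± 11.2 in δ, 118 ± 10.2 in α and 115 ± 13.5 CPM in β cells.

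Fis1 was higher than in β cells in endothelial cells (0.33 ± 0.07, FDR = 3.12e-05), macrophages (0.31 ± 0.08, FDR = 0.000535) and δ cells (0.23 ± 0.07, FDR = 0.00523, all edgeR). The macrophage value turned to −0.25 with totals without hormone genes and was not called in WT libraries alone (0.26, FDR = 0.0738). The δ value was not called in WT libraries alone (0.27, FDR = 0.0646), at a mitochondrial limit of 5% (0.20, FDR = 0.0768), without a filter on low counts (0.18, FDR = 0.0616) or with stricter hormone shares (0.17, FDR = 0.0704). Mff was at 84.6 ± 2.21 CPM in β, 81.1 ± 6.50 in δ and 70.9 ± 1.72 CPM in endothelial cells, 69.7 ± 11.4 CPM in macrophages and 64.7 ± 2.98 CPM in α cells. It was lower in α than in β cells (−0.39 ± 0.06, FDR = 4.60e-06) and lower in α than in δ cells (−0.32 ± 0.07, FDR = 0.00067), and no other member was called between those neighbours in this fit. Members called there ran from 0 in WT libraries alone, where Mff was at −0.31 (FDR = 0.0740) and 2569 of 12425 genes were called, to 4 without TMM. Its differences from β cells in endothelial cells (−0.25 ± 0.06) and macrophages (−0.27 ± 0.07) were called by edgeR too, the latter not without WT 3 (−0.16, FDR = 0.0620). In KO libraries alone neither the endothelial (−0.13, FDR = 0.158) nor the macrophage difference of Mff (−0.10, FDR = 0.428) was called. Without TMM the Mff differences from β cells turned to 0.08 in α cells, 0.46 in endothelial cells and 0.05 in macrophages, whereas the α and δ difference kept its sign and its call.

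The mitophagy genes had the widest ranges. Pink1 in endothelial cells was at 112, 75.5 and 113 CPM in WT 1 to 3 and 108, 82.7 and 97.8 CPM in KO 1 to 3. In β cells it was at 59.5, 32.6 and 36.6 CPM in WT and 46.7, 33.2 and 39.6 CPM in KO. In macrophages it was at 24.7, 22.0 and 18.6 CPM in WT and 16.4, 22.2 and 14.0 CPM in KO. Of the 5 types compared, endothelial cells were the highest and macrophages the lowest in 6 of 6 libraries, with no overlap between the 3 sets. The endothelial mean of 98.2 CPM was 5.00 times that of macrophages. Against β cells Pink1 was higher by 1.26 ± 0.07 in endothelial cells (FDR = 4.33e-16), by 0.41 ± 0.09 in δ cells (FDR = 0.000191) and by 0.31 ± 0.09 in α cells (FDR = 0.00396), and lower by −1.04 ± 0.14 in macrophages (FDR = 5.37e-08, all edgeR). In WT libraries alone the α (0.19, FDR = 0.320) and δ differences (0.34, FDR = 0.0536) were not called, nor was the α difference by limma-voom (0.29, FDR = 0.0667).

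Among the 5 types compared, Bnip3 was highest in β cells and lowest in endothelial cells. In β cells it was at 104, 84.7 and 60.4 CPM in WT and 79.4, 51.9 and 59.4 CPM in KO. In endothelial cells it was at 25.3, 46.3 and 13.2 CPM in WT and 27.8, 6.04 and 8.79 CPM in KO. That order held in 6 of 6 libraries, and the highest endothelial library was still below the lowest β library. Bnip3 was lower than in β cells by −1.84 ± 0.17 in endothelial cells (FDR = 2.14e-11), by −0.95 ± 0.20 in macrophages (FDR = 0.000111), by −0.55 ± 0.16 in α cells (FDR = 0.00432) and by −0.49 ± 0.16 in δ cells (FDR = 0.0119, all edgeR). The last of these was not called without WT 1 (−0.35, FDR = 0.0839) or by limma-voom (−0.41, FDR = 0.0881), and it turned to 0.17 without TMM. The α difference shrank to −0.08 without TMM (FDR = 0.690) and was not called. In KO libraries alone neither the α (−0.34, FDR = 0.126) nor the δ difference (−0.33, FDR = 0.171) was called. DESeq2 called neither the α (−0.46, FDR = 0.0624) nor the δ difference (−0.35, FDR = 0.169). UMIs of Bnip3 per UMI of Pink1 were 1.79 ± 0.406 in β cells, 1.89 ± 0.729 in macrophages and 0.229 ± 0.202 in endothelial cells.

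For the 3 members with the widest range over types, the genes with the most similar pattern of mean log2 CPM over the 5 types were Arl13b, Uchl1 and Tanc1 for Pink1, Brca2, Plxnb2 and Grsf1 for Bnip3, and Armc8, Slc25a46 and Ppat for Mfn2. Pearson's r was between 0.996 and 0.999. These are the 3 highest of 12460 genes over only 5 points, so values near 1 follow from the search itself. The points are means over the same 6 libraries, and the values are a description without a test.

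The wider pathway, 57 further genes for OPA1 processing, cristae, fission adaptors, transport and mitophagy, was tested in the same fits. In β cells 0 of the 52 tested differed between KO and WT, and their median log2 change was −0.00. The 6 of lowest p were the mitophagy receptor Optn (0.26 ± 0.09, unadjusted p = 0.0220), Chchd3 of the cristae complex (0.20 ± 0.09), the DRP1 receptor Mief1 (−0.16 ± 0.08), the autophagy adaptor Sqstm1 (−0.33 ± 0.17), the transport adaptor Trak1 (0.13 ± 0.07) and Fbxl4, a brake on BNIP3-type mitophagy (0.14 ± 0.08), all with an FDR of 0.872 by edgeR. Against β cells 7 of 55 were higher and 26 lower in α cells, where 53.3% of all genes were called, with a median of −0.19 beside −0.04 over all genes. In δ cells 4 were higher and 28 lower, beside 53.1% of all genes, with −0.26 beside −0.05. Those directions rest on the scaling, since without TMM 28 were higher and 4 lower in α cells and 31 higher and 1 lower in δ cells. With TMM the lower count was 15 in WT and 17 in KO libraries alone in α cells, and 18 in each in δ cells. The share of all genes called in those smaller fits is not given here, so these counts are not read as a result about the pathway.

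In α cells the pathway genes with the largest called differences from β cells were Sqstm1 (−1.63 ± 0.09), Chchd10 (−1.22 ± 0.09), which belongs to the cristae and stress machinery, the lipid transfer protein Vps13c (−1.13 ± 0.09), Optn (−0.87 ± 0.14), Fbxl4 (−0.66 ± 0.15) and Tomm7, which helps hold PINK1 at the outer membrane (0.66 ± 0.06). In δ cells they were the fission protein Mtfp1 (1.09 ± 0.15), the DRP1 receptor Mief2 (−1.08 ± 0.28), Chchd10 (−0.92 ± 0.09), Sqstm1 (−0.73 ± 0.09), Vps13c (−0.69 ± 0.09) and the phosphatase Pgam5 (−0.69 ± 0.13). Each kept its sign under every scaling run, but without TMM Fbxl4 in α cells and Mief2, Sqstm1, Vps13c and Pgam5 in δ cells were not called, and in WT libraries alone Mief2 was not either (−0.64, FDR = 0.221). In endothelial cells 19 of 55 were higher and 23 lower than in β cells, beside 83.4% of all genes called, and 38 were higher and 9 lower without TMM. In macrophages 17 were higher and 23 lower, beside 77.2%, and with totals without hormone genes 6 were higher and 40 lower. Between α and δ cells 10 were higher and 11 lower in α cells, beside 37.2%, and without TMM 5 were higher and 23 lower. In WT libraries alone, where 2569 of 12425 genes were called, they were 5 and 1, and in KO libraries alone 5 and 5.

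Leaving out KO β cells with a Ywhaz UMI did little to the members. In sums of KO cells with such a UMI against those without, 0 of the 9 were called, with 0.394% of 9399 genes called, 0.255% higher and 0.138% lower. Opa1 was the furthest, at 35.2, 32.5 and 37.5 CPM with and 38.1, 34.1 and 42.4 CPM without in KO 1 to 3. It was lower in 3 of 3 libraries, by −0.13 ± 0.05 (unadjusted p = 0.0164, FDR = 0.538 by edgeR).

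The same split of WT β cells, in which a Ywhaz UMI marks no deletion, called 1 member beside 3.47% of all genes, 0.585% higher and 2.88% lower. Fis1 was at 61.1, 55.7 and 55.2 CPM in WT 1 to 3 cells with a Ywhaz UMI and at 191, 82.7 and 75.8 CPM in those without. It was lower in 3 of 3 libraries, by −0.92 ± 0.21 on the log2 scale (FDR = 0.0154 by edgeR), and WT 1 was far apart from the others in the cells without. Those cells were few, 89, 58 and 71 per library, and shallower, with a median of 40016, 16207 and 18375 UMIs against 44080, 28943 and 33646 in the cells with a UMI.

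The filter on mitochondrially encoded UMIs is the one nearest to these genes in subject. Insulin-rich barcodes above the 10% limit, 246 to 598 per library and left out of the results above except where a limit of 20% is named, were set against those below it, with mitochondrially encoded genes removed and TMM applied. Of the 9 genes 3 were lower and 0 higher above the limit, where 47.3% of 12905 genes were called, 24% higher and 23.3% lower. Fis1 was at 79.4, 75.0 and 76.4 CPM above the limit in WT and 82.4, 92.5 and 74.6 CPM in KO, and below the limit at 106, 92.9 and 91.4 CPM in WT and 100.1, 122 and 90.8 CPM in KO. It was lower above the limit in 6 of 6 libraries, by −0.32 ± 0.04 (FDR = 2.07e-07), as were Bnip3 (−0.29 ± 0.05, FDR = 2.90e-05) and Mff (−0.15 ± 0.04, FDR = 0.0022, all edgeR). With the limit at 20% the Mff difference was not called (−0.14, FDR = 0.216).

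These 3 signs rest on the scaling. Without TMM the median gene moved up by 0.34, and the values became 0.02 for Fis1, 0.06 for Bnip3 and 0.19 for Mff, with 50.8% of calls higher with TMM and 96.4% without. Insulin made up 32.4% to 36.8% of nuclear UMIs above the limit and 43.1% to 51.4% below it, and barcodes above it were shallower, with medians of 10822 to 25149 UMIs against 20381 to 42865. The part of depth and of the insulin share was not tested. Of the wider pathway 8 of 54 genes were higher and 21 lower above the limit, beside 24% and 23.3% of all genes, and 38 were higher and 3 lower without TMM.

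**Figure D5:**
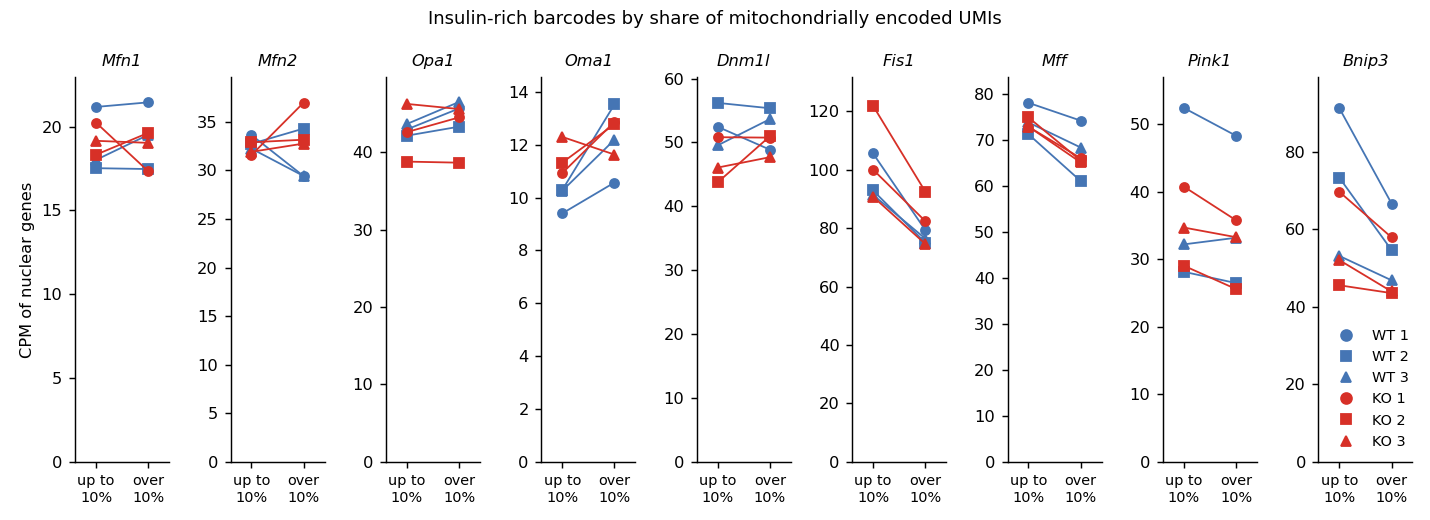
Level of each gene (CPM of nuclear genes, TMM scaled) in insulin-rich barcodes with up to 10% and over 10% mitochondrially encoded UMIs, 1 line per library (WT blue, KO red). Fis1, Mff and Bnip3 fall above the limit in 6 of 6 libraries with this scaling, and their sign turns without TMM.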

How the data were processed

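Single-cell libraries (10x Genomics 3′, v3.1) of islets from 3 WT and 3 KO samples were used, 1 per sample. The authors processed the reads with Cell Ranger 6.0.2 against mm10 and analysed them with Seurat, per the labels, and deposited UMI counts per gene and barcode without normalization. No deposited cell annotation was used. Barcodes with under 500 genes or over 10% mitochondrially encoded UMIs were left out, as were endocrine barcodes under 5000 UMIs. β cells had at least 20% insulin UMIs and little Gcg, Sst and Ppy, α cells at least 5% Gcg, δ cells at least 2% Sst, and other types at least 3 markers. No doublet caller was run, and mixed hormone barcodes were not classed. Counts were summed per library and type, since cells are not replicates, and types with 20 or more cells in every library were tested.

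edgeR 4.0.16 (quasi-likelihood, TMM, in R 4.3.3) was used with Benjamini-Hochberg adjustment over all genes tested, with genes in over 15% of β cells of either genotype for the β cell fit and filterByExpr elsewhere. A call is an FDR under 0.05 with an absolute log2 change above 0.1. DESeq2 1.42.0 and limma 3.58.1 served as alternatives. In the cell type fit, the fit of differences between types and the splits of β cells and insulin-rich barcodes, the library was a block. The tests were also run on simulated counts with a set spread per fit and without a shared effect of the replicate number. That run does not tell how many true changes would be missed in these data.

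Same-numbered WT and KO libraries deviated together from their group means over 9399 genes (r = 0.503, 0.426 and 0.227, other pairs −0.481 to 0.01), so the replicate number was also used as a block. Deviations from a group mean sum to 0, so values above 0 in some pairs pull the others down. The block was chosen from the same counts that were then tested, so p-values with it are not independent of that choice. The labels do not say what the replicate number marks. No libraries were copies of each other by a chi-square test of their counts.

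All 9 members are reported by symbol. Of 57 other pathway genes, the 6 of lowest p in β cells and the 6 called genes of largest change in α and δ cells are named. The members, lists and tests were chosen with earlier results of these data known. Positions are from GENCODE gene models of mm10, to which 99.6% of gene identifiers matched, the promoter is from RefSeq (GRCm38.p6), and the primers are the study's. Protein sequences were not used here.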

Additional observations from a re-analysis of the deposited data

Results flagged for a closer look

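Of 54 sets of 6 libraries that were checked for a library apart from the rest, 2 held one, where chance gives about 1 in 20. Oma1 in macrophages was highest in KO 1, at 27.4 CPM, and the gap to the next library was 0.673 of the whole range. The difference of Mfn1 between insulin-rich barcodes above and below the mitochondrial limit was lowest in KO 1, at −0.22 on the log2 scale, with a gap of 0.633 of the range. Without KO 1 the Oma1 difference between macrophages and β cells was not called (0.33, FDR = 0.114, edgeR).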

How the results depend on the processing

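No member was called between genotypes in any of the 5 types, and none in the tests of the difference between types, under any of the alternatives run. Counts of members below that stand without a share of all genes are not read as a result about the members. With the replicate number as a block the genes called rose from 1 to 9 in β cells, from 0 to 11 in α, 6 in δ and 1 in endothelial cells, and from 2 to 42 in macrophages, and 1 further pathway gene was called, higher in macrophages. The block changed the call of no member. DESeq2 called 8 genes in β, 1 in α and 3 in endothelial cells, 4 in macrophages and 10 in the KO split by Ywhaz (37 in the report), and 2 members between α and δ cells. Without a filter on low counts 6 genes were called in β, 95 in α, 42 in δ and 10 in endothelial cells and 112 in macrophages, and 3 members in δ against β cells. Without TMM 13 genes were called in β and 1 in endothelial cells, and 4 members between α and δ cells. Across the mitochondrial limit 7 members were then called, where 66.2% of all genes were called higher. Signs turned without TMM in α (Mff 0.080, Mfn1 0.072), δ (Bnip3 0.17) and endothelial cells (Dnm1l 0.43, Mff 0.46, Oma1 0.26, Opa1 0.23), in macrophages (Mff 0.051) and across the limit (Bnip3 0.063, Fis1 0.016, Mff 0.19). Totals without hormone genes gave 3 members between α and δ cells and turned Fis1 (−0.25) and Oma1 (−0.060) in macrophages.

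WT libraries alone gave 3 members in α and 2 in δ against β cells, and 0 members and 2569 genes (4635 in the report) between α and δ cells. Members called between α and δ cells were 2 with a mitochondrial limit of 20% and 2 with no UMI minimum, and in δ against β cells 3 with a limit of 5%. In β cells, near 0, signs turned with all KO cells kept (Mff −0.014, Mfn2 −0.033, Opa1 −0.0030), limits of 5% (Mfn1 −0.027, Mfn2 −0.0038) and 20% (Mff −0.0056), a minimum of 10000 UMIs (Mff −0.0031), no minimum (Mfn2 −0.011) and stricter hormone shares (Mff −0.0049). Genes called in macrophages were 1 with the 20% limit and 0 with looser hormone shares. Cells thinned to 10000 UMIs gave 19 genes in the KO split.

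Genes whose KO change differed from that in β cells, with Ywhaz among them by the selection of cells, numbered 2 in α, 6 in endothelial cells and 2 in macrophages. With all KO cells kept they were 3 in endothelial cells and 1 in macrophages, with limma-voom 1 in α and 1 in endothelial cells and 4 in macrophages, with stricter hormone shares 1 in α and 10 in endothelial cells, and with no UMI minimum 2 in endothelial cells and 11 in macrophages. In macrophages they were also 1 with looser shares, 6 with 10000 UMIs and 1 with the 20% limit.

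Leaving out 1 library at a time, genes called ranged from 1 to 2 in β (2 without WT 2), 0 to 2 in α, 0 to 2 in δ and 0 to 3 in endothelial cells, 0 to 3 in macrophages (0 without KO 3), 18 to 67 in the KO split and 149 to 294 in the WT split (326 in the report, 149 without WT 3). For the differences from β cells they ranged from 1 to 3 in α, 3 to 17 in endothelial cells and 1 to 10 in macrophages. Log2 changes ranged from −0.028 to 0.039 for Mff, −0.037 to 0.098 for Mfn1, −0.0084 to 0.067 for Mfn2, −0.024 to 0.13 for Opa1 and −0.22 to 0.26 for Pink1 in β cells, and for Bnip3 from −0.18 to 0.078 in α cells, −0.31 to 0.14 in δ cells and −0.0090 to 0.48 in δ less β cells.

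Of 1296 recomputed log2 changes 1217 kept direction and side of the threshold and 42 kept direction only. Genotype in α cells could not be fitted at a limit of 5%, since a library held under 20 cells, and Oma1, Optn and Fbxl4 in β cells without a UMI minimum and Mief2 in δ cells under 2 settings did not pass the filters. The causes of these moves were not tested. Low UMI counts limit Oma1 and the members in macrophages, where Mfn1 had 10 to 19 UMIs per library.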
